A study of Mus musculus with 4 samples.

Results

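The genes examined here make, sense, move and store cholesterol and the related sterols of mouse T cells. They were 28 genes chosen by function, with earlier results of these data known. They are enzymes of the mevalonate and sterol pathway, regulators of the transcription factor SREBP2, and proteins of lysosomal sterol release, sterol transport and esterification. Each was represented by the array probe set annotated with its symbol. Of the 28, 24 were measured among 19505 genes in all. Expression of Acat2, Tm7sf2, Soat1 and Soat2 is not analysed here. The study compared T cells cultured under a Tc9 cytokine condition (arrays Tc9-1 and Tc9-2) with cells cultured under a Tc1 cytokine condition (arrays Tc1-1 and Tc1-2), and asked how their gene expression differs. In the field, Tc9 stands for interleukin 9-producing CD8 T cells, and Tc1 for cytotoxic CD8 T cells rich in interferon gamma. Strain, age, sex, cell source, the cytokines added, culture times and any agent common to both groups were not stated in the labels.

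Cells build cholesterol from acetyl-CoA. A first series of reactions, the mevalonate arm, gives isoprenoid units that also serve protein prenylation, dolichol and ubiquinone. A second series joins these units into squalene, closes it to lanosterol and trims lanosterol to cholesterol. SREBP2, encoded by Srebf2, drives transcription of most of these enzymes. When sterols are plentiful, Scap and the Insig proteins hold SREBP2 in the endoplasmic reticulum, and when sterols are scarce, Scap escorts it to the Golgi for cleavage. T cells are known to raise sterol synthesis when they are activated and grow.

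Biotin-labelled total RNA was hybridised to Affymetrix arrays, 2 per group. Deposited intensities had a median of 37.9 and 57.1 on Tc9-1 and Tc9-2, against 37.1 and 57.3 on Tc1-1 and Tc1-2. Arrays that share a number thus had like brightness, and they also shared the precision of their deposited values (a median of 10 digits for number 1 and 7 for number 2). Differences are therefore also given within each number for the genes described in full. Gzmb and Ifng, genes of the cytotoxic Tc1 state, were lower in Tc9 (log2 changes of -3.83 and -0.98, limma adjusted p = 0.000108 and 0.0251). Il9 measured 103 and 81.9 on the Tc9 arrays, against 23.4 and 26.5 on the Tc1 arrays, with limma adjusted p = 0.0679, and none of its 4 signals exceeded the 95th percentile of that array's negative-control probe sets. All 7 measured T cell identity genes (Cd8a and Cd8b1 of CD8, with Cd3e, Cd3d, Cd3g, Cd2 and Cd5) lay above that percentile on 4 of 4 arrays. Cd4 lay below it on each. Of 29 measured markers of CD4 T, B, myeloid, NK, mast or basophil, erythroid or platelet, and dendritic cells (7 lists), 0 were above it on all 4 arrays and 28 were above it on 0 arrays. Their summed intensity was 1337 and 1264 in Tc9 against 1263 and 1259 in Tc1. In such bulk RNA, fewer cells of a type and less RNA per cell cannot be told apart. Whether replicates were separate cultures or animals was not labelled, and the p-values therefore measure the spread between these arrays only, which may be technical.

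Without a block for the array number, no sterol gene differed between Tc9 and Tc1 cells past the threshold of the test over all genes. A fit with that block, which sets differences between the numbers aside, called 8 of the 24. It is given below beside the shares of all genes called. By limma with Benjamini-Hochberg adjustment and no block, 0 of the 24 passed an adjusted p of 0.05, beside 0.564% of all genes. The smallest adjusted p among the 24 was 0.863. At an unadjusted p under 0.05, 1 was lower in Tc9 (Lss), beside 2.34% of all genes, and 0 were higher, beside 2.94%. Log2 changes, which compare normalized intensity plus 16, were taken as Tc9 minus Tc1 and ran between -0.49 for Idi1 and 0.26 for Lipa. Of the 24, 13 were positive and 11 negative. Their median was 0.025, against -0.0027 over all genes, and turned to -0.010 when arrays were centred on their medians in place of quantile normalization.

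The sizes of the differences can be bounded only by the spread between these arrays, which may be technical. In the fit without the block, used here, that spread includes the difference between array numbers. With the block the standard errors were smaller, as 0.068 against 0.22 for Idi1 and 0.099 against 0.28 for Msmo1. Those of the block rest on 1 residual degree of freedom. Without the block the standard error of the log2 change was between 0.11 and 0.28 for the 24 genes. For 23 of them the 95% interval stayed within 1 on the log2 scale on either side of 0, which is a 2-fold change. The interval of Idi1 reached just past that bound on the low side. Insig2 and Npc1 are among the 23, and their signals exceeded the negative-control percentile on 0 and 2 of 4 arrays. The intervals of these genes thus bound signals at or near background. The median size of the change was 0.21, against 0.11 over all 19505 genes and 0.14 over the 6354 genes above the negative-control percentile on all 4 arrays. Changes larger than that of Idi1 were found in 5.03% of all genes, and larger than that of Dhcr7 in 94.9%.

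**Figure D1:**
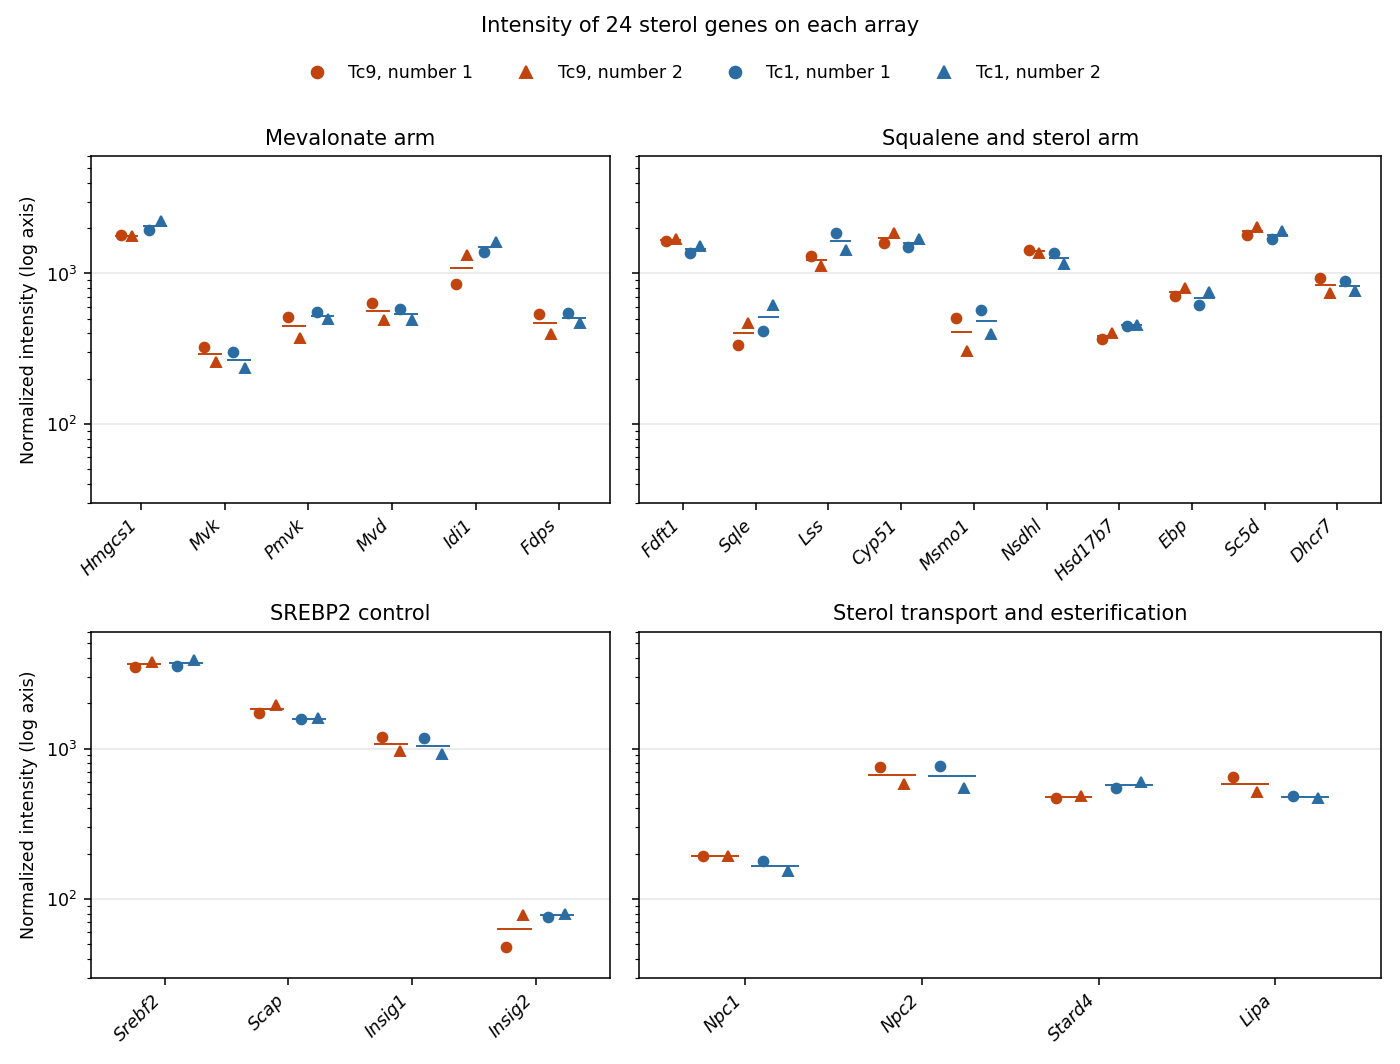
Quantile-normalized intensity (log axis) of each measured sterol gene on every array, with circles for arrays numbered 1, triangles for arrays numbered 2, and lines for the group means of 2 arrays. Tc9 and Tc1 points lie close together for most of the 24 genes. Both Tc9 arrays lie below both Tc1 arrays for Idi1, Lss, Hmgcs1, Hsd17b7 and Stard4, and above both for Fdft1, Nsdhl, Scap, Npc1 and Lipa.

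The mevalonate arm held the lowest Tc9 value relative to Tc1, at Idi1. Idi1, which interconverts the isoprenoid building blocks isopentenyl and dimethylallyl diphosphate, measured 854 and 1324 in Tc9 against 1391 and 1624 in Tc1 (Tc9-1, Tc9-2, Tc1-1 and Tc1-2 in that order, as in all lists of 4 values below). Both Tc9 arrays lay below both Tc1 arrays, and Tc9-1 stood well below the other 3. The log2 change was -0.49 ± 0.22 (SE, limma adjusted p = 0.972), with -0.69 on the arrays numbered 1 and -0.29 on those numbered 2. The size of the change depended on the Tc9 arrays: without Tc9-1 it was -0.18 (limma adjusted p = 1.000). Without Tc9-2 it was -0.80, and Idi1 passed the test (limma adjusted p = 0.0227), as did 0.636% of all genes in that direction.

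Hmgcs1, the synthase that forms HMG-CoA at the head of the arm, measured 1795 and 1772 in Tc9 against 1942 and 2222 in Tc1. The groups did not overlap, and the Tc9 arrays differed from each other by less than the Tc1 arrays did. The log2 change was -0.22 ± 0.13 (SE, limma adjusted p = 1.000), with -0.11 and -0.32 within numbers 1 and 2. Pmvk, the kinase that acts on mevalonate phosphate, measured 517 and 372 in Tc9 against 552 and 495 in Tc1, where the groups overlapped (log2 change -0.24 ± 0.20, SE, limma adjusted p = 1.000). Its difference was -0.090 within number 1 and -0.40 within number 2. With 1 array left out at a time, the change of Hmgcs1 lay between -0.31 (without Tc1-1) and -0.12 (without Tc1-2), and that of Pmvk between -0.47 (without Tc9-1) and -0.014 (without Tc9-2).

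The other 3 measured genes of this arm differed little between the groups. Mvk, which phosphorylates mevalonate, averaged 291 ± 47.1 in Tc9 and 267 ± 45.4 in Tc1 (SD, n = 2 each). Mvd, which decarboxylates the last mevalonate intermediate, averaged 565 ± 101 in Tc9 and 535 ± 63.0 in Tc1. Fdps, which makes farnesyl diphosphate, averaged 467 ± 98.2 in Tc9 and 510 ± 54.9 in Tc1. For Mvk, Mvd and Fdps the difference between group means was smaller than the spread within the Tc9 arrays. All 3 were lower on the arrays numbered 2 in both groups, so that spread includes the difference between numbers. The changes within numbers 1 and 2 were 0.11 and 0.12 for Mvk, 0.13 and 0.0095 for Mvd, and -0.030 and -0.23 for Fdps. Over the 6 measured genes the median log2 change was -0.17, with -0.060 and -0.26 within numbers 1 and 2, and 4 of the 6 were negative within both numbers.

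Promoters of these genes are shown because sterol enzymes are known SREBP2 targets and NF-Y, which binds CCAAT boxes, is a known partner of SREBP2. RefSeq windows of 300 bases (250 before the gene start and 50 after it, build GRCm38.p6) were matched by symbol for 22 of the 28 genes, in 28 windows, since 4 genes had several. The 22 are 19 genes measured on the array and Acat2, Tm7sf2 and Soat1. Fdps, Fdft1, Sqle, Npc1, Stard4 and Soat2 had no window in the table. The sequences below belong to Hmgcs1 (chr13:119690101-119690400, plus strand), Idi1 (chr13:8885356-8885655, plus strand), Lss (chr10:76531355-76531654, plus strand) and Insig1 (chr5:28071162-28071461, plus strand). They are Hmgcs1, where the searched sterol element lies, Idi1 and Lss, the genes lowest in Tc9, and Insig1, a sterol-responsive regulator with a near-zero difference. Capitals mark CCAAT on either strand (ATTGG on the strand shown) and the core of the sterol regulatory element, TCACNCCAC.
Hmgcs1: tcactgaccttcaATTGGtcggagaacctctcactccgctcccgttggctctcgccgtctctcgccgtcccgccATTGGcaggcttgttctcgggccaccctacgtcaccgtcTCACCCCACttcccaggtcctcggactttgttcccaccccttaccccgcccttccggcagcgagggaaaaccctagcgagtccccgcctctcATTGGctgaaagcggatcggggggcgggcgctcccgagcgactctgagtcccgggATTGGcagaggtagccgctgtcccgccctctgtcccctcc
Idi1: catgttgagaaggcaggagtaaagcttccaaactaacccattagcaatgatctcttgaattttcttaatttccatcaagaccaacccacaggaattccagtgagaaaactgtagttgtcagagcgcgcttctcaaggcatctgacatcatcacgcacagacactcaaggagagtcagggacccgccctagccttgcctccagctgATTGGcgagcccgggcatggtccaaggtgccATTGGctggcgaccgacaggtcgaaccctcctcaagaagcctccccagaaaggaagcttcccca
Lss: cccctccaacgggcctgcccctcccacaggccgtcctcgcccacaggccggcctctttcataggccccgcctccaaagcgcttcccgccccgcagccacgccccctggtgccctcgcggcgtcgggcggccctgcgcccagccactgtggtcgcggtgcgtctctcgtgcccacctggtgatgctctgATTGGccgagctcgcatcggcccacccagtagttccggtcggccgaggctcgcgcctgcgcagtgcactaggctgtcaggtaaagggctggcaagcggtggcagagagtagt
Insig1: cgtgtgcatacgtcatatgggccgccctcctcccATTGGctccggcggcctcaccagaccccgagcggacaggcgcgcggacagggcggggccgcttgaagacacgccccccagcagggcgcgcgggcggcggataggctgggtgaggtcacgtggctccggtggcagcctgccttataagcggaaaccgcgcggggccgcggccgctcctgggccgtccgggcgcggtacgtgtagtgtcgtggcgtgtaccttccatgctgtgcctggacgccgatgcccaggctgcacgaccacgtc

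The letters CCAAT were in 20 of 28 windows of the sterol genes (71.4%), against 37.4% of all 32851 windows and 37.9% of 19143 windows of genes measured on the array. Counted by gene, they were in 20 of 22 (18 of the 19 measured), and no share by gene was taken over all genes. Shares over genes above background were not taken either. GGGCGG, the letters of an Sp1 site, was in 24 of 28 windows (85.7%), against 35.7% of all windows and 47.9% of windows of measured genes. All motifs were searched on both strands. CACGTG, an E-box, was in 6 of 28 windows (21.4%), against 7.15% of all windows and 8.11% of windows of measured genes. TCACNCCAC was in 1 window (3.57%), that of Hmgcs1 at position -137 from the gene start. It was in 1.24% of all windows and 1.22% of windows of measured genes. Other forms of the sterol regulatory element were not searched, so windows without these letters are not shown to lack one. In 0 of the 28 windows did matches of different motifs share bases. In Idi1 the CCAAT matches began, counting the gene start as 0, at positions -45 and -14, in Lss at -62 and in Insig1 at -216. Promoters of the genes with the lowest Tc9 values and of those with near-zero differences thus held the same CCAAT letters, which describe the sequence and say nothing of binding in these cells.

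In the squalene and sterol arm, Lss had the largest difference. Lss, the cyclase that forms lanosterol, measured 1315 and 1128 in Tc9 against 1864 and 1432 in Tc1. Both Tc9 arrays lay below both Tc1 arrays, and within each group the array numbered 1 was the higher. The log2 change was -0.42 ± 0.17 (SE, limma adjusted p = 0.863, unadjusted p = 0.0410), with -0.50 and -0.34 within numbers 1 and 2, a 1.34-fold difference. It was -0.23 without Tc1-1, the highest array, and -0.61 without Tc1-2.

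Sqle, the squalene epoxidase that stands just before Lss, measured 337 and 470 in Tc9 against 416 and 617 in Tc1. The groups overlapped, and both arrays numbered 2 were higher than their partners numbered 1, while Tc9 was below Tc1 within each number. The log2 change was -0.34 ± 0.25 (SE, limma adjusted p = 1.000), with -0.29 and -0.38 within the numbers, and lay between -0.61 (without Tc1-1) and -0.062 (without Tc1-2) with 1 array left out. Msmo1, an oxidase that acts in removal of methyl groups from the sterol ring, measured 504 and 308 in Tc9 against 573 and 394 in Tc1. Here the arrays numbered 1 were the higher ones, and the groups overlapped (log2 change -0.26 ± 0.28, SE, limma adjusted p = 1.000, with -0.18 and -0.34 within the numbers). With 1 array left out the sign of Msmo1 could turn: the change was 0.083 without Tc9-2, 0.00063 without Tc1-1 and -0.60 without Tc9-1. Such a fit leaves the groups unequal in array numbers, and Msmo1 differed by -0.60 between numbers (number 2 minus number 1). Within each number Msmo1 was lower in Tc9. Hsd17b7, the reductase of the same methyl-removal steps, measured 369 and 403 in Tc9 against 451 and 453 in Tc1, without overlap (log2 change -0.22 ± 0.16, SE, limma adjusted p = 1.000, with -0.28 and -0.16 within the numbers).

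The other 6 measured enzymes of this arm had higher mean values in Tc9, and none passed the test. Fdft1, the squalene synthase, measured 1655 and 1700 in Tc9 against 1374 and 1523 in Tc1, without overlap (log2 change 0.21 ± 0.13, SE, and 0.27 and 0.16 within numbers 1 and 2). Nsdhl, a dehydrogenase of the methyl-removal steps, measured 1442 and 1360 in Tc9 against 1360 and 1164 in Tc1, and the lower Tc9 array lay just above the higher Tc1 array (log2 change 0.15 ± 0.14). Fdft1 and Nsdhl were thus the members of the arm with both Tc9 arrays above both Tc1 arrays. Cyp51, the lanosterol demethylase, averaged 1723 ± 183 in Tc9 and 1603 ± 130 in Tc1 (SD, n = 2 each). Ebp, the sterol isomerase, averaged 755 ± 61.6 in Tc9 and 687 ± 91.6 in Tc1. Sc5d, which desaturates lathosterol, averaged 1911 ± 163 in Tc9 and 1804 ± 152 in Tc1. Dhcr7, the reductase that completes cholesterol, averaged 837 ± 140 in Tc9 and 828 ± 88.7 in Tc1. Cyp51, Ebp, Sc5d and Dhcr7 overlapped between the groups. Over the 10 measured genes of the arm the median log2 change was 0.046, and 5 were positive and 4 negative within both numbers.

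**Figure D2:**
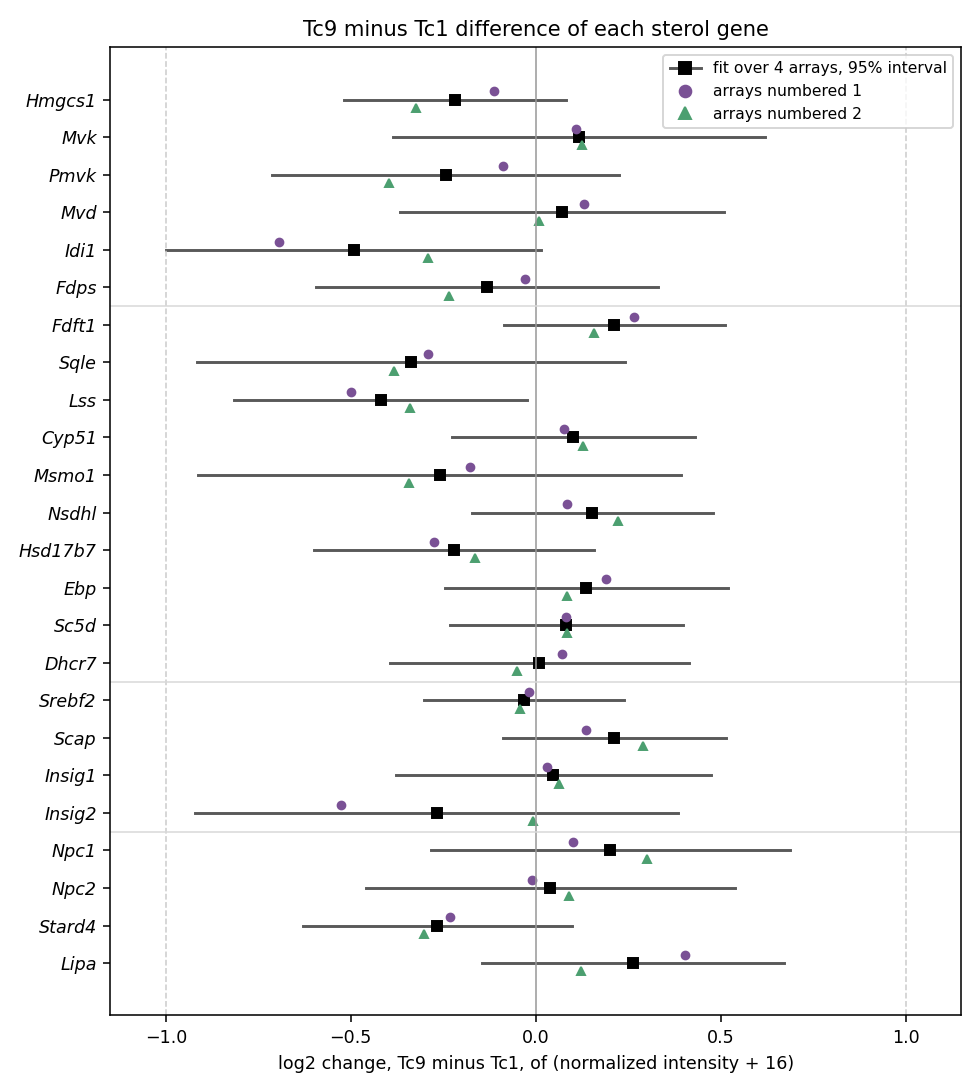
Difference Tc9 minus Tc1 (log2 of normalized intensity plus 16) of each sterol gene, ordered by role from the mevalonate arm at the top to transport at the bottom, where squares are the fit over 4 arrays with its 95% interval, circles and triangles (drawn just above and below the line) are the differences within numbers 1 and 2, and dashed lines mark 2-fold. The interval of Lss alone, before adjustment for multiple tests, leaves out 0.

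The regulators of SREBP2 showed no difference past the test. Srebf2, the transcription factor gene itself, measured 3507 and 3780 in Tc9 against 3555 and 3893 in Tc1. The arrays numbered 2 were higher in both groups, and the groups overlapped. The log2 change was -0.031 ± 0.11 (SE, limma adjusted p = 1.000), with a 95% interval between -0.30 and 0.24, and -0.019 and -0.042 within the numbers. Scap, the escort protein of SREBP2, measured 1723 and 1952 in Tc9 against 1568 and 1592 in Tc1. Both Tc9 arrays lay above both Tc1 arrays, at a log2 change of 0.21 ± 0.13 (SE, limma adjusted p = 1.000), with 0.13 and 0.29 within the numbers, and 0.12 without Tc9-2.

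Insig1, the retention protein whose gene is itself a known SREBP2 target, measured 1200 and 958 in Tc9 against 1174 and 916 in Tc1. The values followed the array number more than the group, and the log2 change was 0.047 ± 0.18 (SE, limma adjusted p = 1.000), with a 95% interval between -0.38 and 0.47, and 0.031 and 0.064 within the numbers. Insig2, the related retention protein, measured 48.0 and 78.6 in Tc9 against 76.3 and 79.1 in Tc1. It lay below the negative-control percentile on all 4 arrays, and its log2 change of -0.27 ± 0.28 (SE, limma adjusted p = 1.000, with -0.53 and -0.0082 within the numbers) rests on signals at background. It turned to 0.013 without Tc9-1, and that of Insig1 turned to -0.11 without Tc9-1 and -0.13 without Tc1-2.

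Among the measured genes of sterol transport and lysosomal release, Lipa and Stard4 differed most, in opposite directions. Lipa, the lysosomal acid lipase that frees cholesterol from esters, measured 646 and 511 in Tc9 against 485 and 468 in Tc1. Both Tc9 arrays were above both Tc1 arrays, and Tc9-1 stood apart as the highest. The log2 change was 0.26 ± 0.17 (SE, limma adjusted p = 1.000), with 0.40 and 0.12 within the numbers. It was 0.099 without Tc9-1 and 0.43 without Tc9-2. Stard4, a soluble sterol carrier, measured 466 and 487 in Tc9 against 550 and 604 in Tc1, without overlap. Its log2 change was -0.27 ± 0.15 (SE, limma adjusted p = 1.000), with -0.23 and -0.30 within the numbers. Npc1, the membrane protein that exports cholesterol from lysosomes, measured 192 and 193 in Tc9 against 178 and 154 in Tc1, without overlap (log2 change 0.20 ± 0.21, SE). Its signal exceeded the negative-control percentile on 2 of 4 arrays. Npc2, its soluble partner, averaged 669 ± 123 in Tc9 and 654 ± 152 in Tc1 (SD, n = 2 each), where the groups overlapped.

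Both Tc9 arrays lay below both Tc1 arrays for 5 of the 24 genes (20.8%: Hmgcs1, Idi1, Lss, Hsd17b7 and Stard4), beside 15.1% of all genes, and above both for another 5 (20.8%: Fdft1, Nsdhl, Scap, Npc1 and Lipa), beside 14% of all genes. Of the 22 sterol genes above the negative-control percentile on all 4 arrays, 5 were lower without overlap (22.7%) and 4 higher (18.2%), close to the 20% and 17.4% of all 6354 such genes. These counts have no test. The difference had the same sign within both numbers for 22 of 24 genes (91.7%), 11 negative and 11 positive, against 62.0% of all genes and 74.8% of the 6354 brighter genes. Dhcr7 and Npc2 were the exceptions, at 0.071 and -0.052 and at -0.0094 and 0.089 within numbers 1 and 2.

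**Figure D3:**
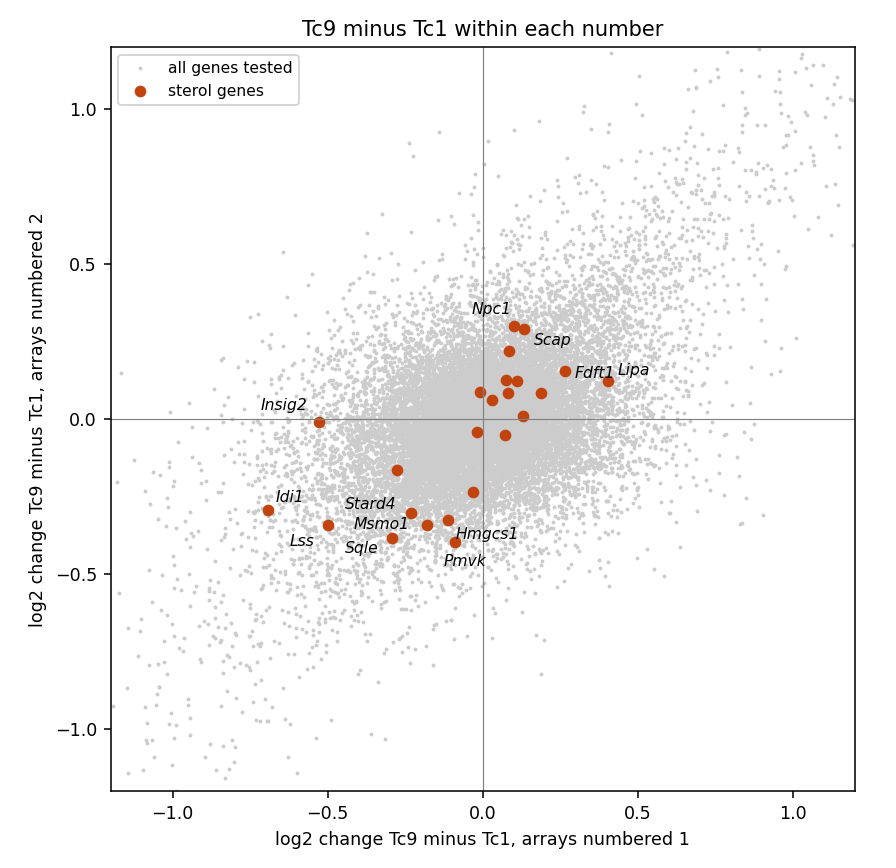
Tc9 minus Tc1 difference (log2) within the arrays numbered 1 (horizontal) against that within the arrays numbered 2 (vertical), with sterol genes in orange over all genes in grey. The axes end at 1.2, beyond which 186 genes lie. All 24 sterol genes lie well inside that limit, with Idi1 and Lss farthest to the lower left.

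Differences between the array numbers were as large as those between the groups. For 14 of 24 sterol genes (58.3%) the mean difference between arrays numbered 2 and 1 exceeded the difference between Tc9 and Tc1, against 64.1% of all genes. Msmo1 differed by -0.60 and Sqle by 0.51 on the log2 scale (number 2 minus number 1), so these 2 enzymes of one arm ran in opposite directions. Idi1 differed by 0.42, Npc2 by -0.42 and Insig1 by -0.34. Whether these gaps arose in the cultures or in the handling of the arrays cannot be told apart, since both carry the same numbers.

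**Figure D4:**
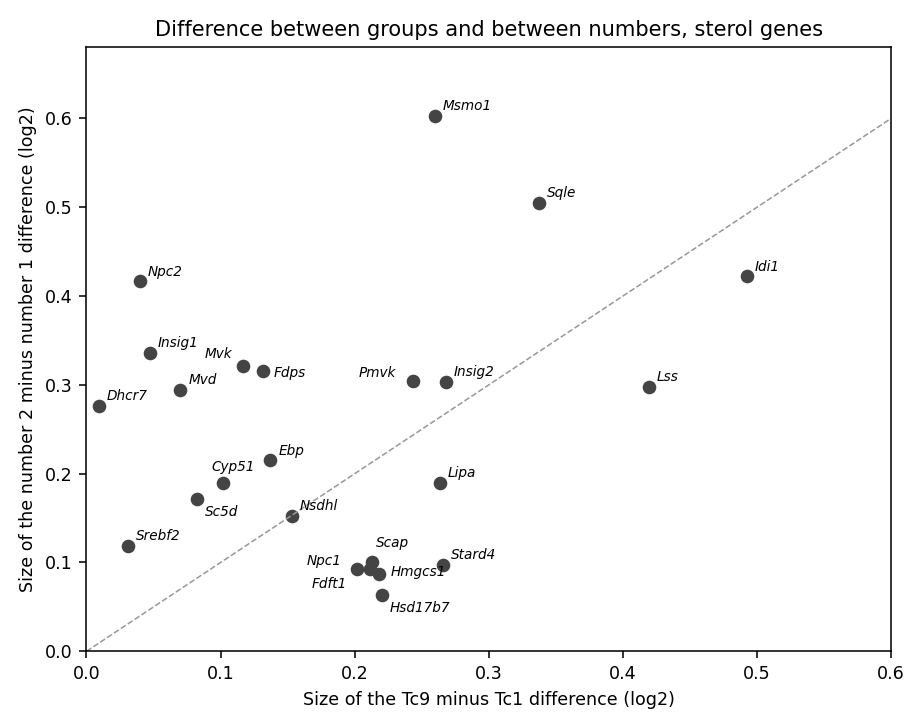
Size of the difference between groups (horizontal, Tc9 minus Tc1) against the size of the difference between array numbers (vertical, number 2 minus number 1), both in log2, for each sterol gene. Points above the dashed line of equality differ more between numbers than between groups, as Msmo1, Sqle, Npc2 and Insig1 do, and Idi1 and Lss lie below it.

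With the replicate number as a block, which sets that difference aside, limma called 8 of the 24 sterol genes. Idi1, Lss, Hmgcs1, Sqle and Stard4 were lower in Tc9, with adjusted p between 2.77e-11 and 0.0329. They are 20.8% of the 24, against 7.37% of all genes called lower. Fdft1, Scap and Lipa were higher in Tc9, with adjusted p between 0.00638 and 0.0355, or 12.5% against 6.34% of all genes called higher. Among genes above the negative-control percentile on all 4 arrays the shares were 22.7% of 22 sterol genes against 15.9% of 6354 genes for lower, and 13.6% against 13.1% for higher. That fit left 1 residual degree of freedom and an infinite prior, so that all genes of like intensity were given the same spread. Without the intensity trend, a setting chosen after seeing the data, only Idi1 and Lss of the 24 passed with the block (limma adjusted p = 0.0321 and 0.0359). These 2 genes are 8.33% of the 24, beside 3.41% of all genes called lower and 3.9% called higher in that setting.

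No other measured gene of the pathway lists passed the test. Of 36 further genes in 3 lists (SREBP processing and sterol-regulated protein turnover, use of isoprenoids, and sterol carriers with oxysterol enzymes), 32 were measured and 0 passed limma over all genes. Unadjusted p-values under 0.05 were found for 1 gene higher and 1 gene lower in Tc9 (3.12% of the 32 each), near the 2.94% and 2.34% of all genes. With the block 1 was higher and 5 were lower (15.6%), against 6.34% and 7.37% of all genes and 13.1% and 15.9% of the genes above the negative-control percentile on all 4 arrays, as 25 of the 32 are. Their median log2 change was -0.0012, and 16 were positive and 16 negative. By list the medians were 0.038 over 7 genes of SREBP processing and turnover, -0.17 over 9 genes of isoprenoid use, and -0.014 over 16 carriers and oxysterol genes. The largest differences were those of Osbpl8 and Gramd1a, named after their values were seen, which encode lipid transfer proteins of membrane contacts. Gramd1a, a carrier of cholesterol from the plasma membrane to the endoplasmic reticulum, measured 476 and 440 in Tc9 against 244 and 265 in Tc1 (log2 change 0.81 ± 0.17, SE, limma adjusted p = 0.169). Osbpl8, an oxysterol-binding protein relative, measured 449 and 287 in Tc9 against 816 and 519 in Tc1 (log2 change -0.83 ± 0.28, SE, limma adjusted p = 0.634). Neither pair of groups overlapped, and neither gene passed the test.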

How the data were processed

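Total RNA from cells of 2 culture conditions was measured on 4 Affymetrix arrays, 2 labelled Tc9 and 2 labelled Tc1. The authors deposited 1 linear intensity per probe set and array. Of background correction, probe summarization and scaling, nothing is given in the sources used here. The values, up to 13711, show a linear scale. Control probe sets (6640 of 28846) took no part in the fit. Platform annotation named 19572 of the other 22206 with a single symbol. The highest-mean probe set stood for each of 19505 genes, and 0 sterol genes had several.

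Intensities were quantile normalized over the 4 arrays, because array medians differed by 0.54 on the log2 scale, 16 was added and log2 was taken, which understates the change of dim genes. Tc9 minus Tc1 was fitted by limma 3.58.1 under R 4.3.3, with eBayes moderation along an intensity trend and Benjamini-Hochberg adjustment over all genes, at an adjusted p of 0.05, with 2 residual and 5.09 prior degrees of freedom. The number of arrays, 2 per group, limits the precision. A signal counted as above background where the deposited intensity exceeded the 95th percentile of 5222 negative-control probe sets on that array. The fit was tested on simulated data, with added changes larger than that of any sterol gene and noise independent between arrays. That simulation does not cover changes as small as theirs or differences shared by arrays of the same number. Alternatives were the replicate number as a block, other scalings, pseudocounts, variance models and filters, and leaving out each array.

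The sterol genes and all lists were chosen with earlier results of these data known. Each array and difference is given for genes past the test, for the 10 largest changes among genes above background on at least 2 arrays, and for Srebf2, Scap, Insig1 and Insig2.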

Additional observations from a re-analysis of the deposited data

How the results depend on the processing

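All 24 sterol genes kept their direction and stayed outside the threshold with a pseudocount of 1 or 64, without the intensity trend, with robust eBayes and with filters at the 25th and 50th percentile. With values as deposited and with median centring 23 of 24 did so, and Dhcr7 turned to -0.0012 and -0.023. The count of positive sterol genes was between 9 and 13 over all settings. Their median log2 change was 0.012 as deposited and -0.010 with median centring, and between -0.11 and 0.066 with 1 array left out. With the replicate block, 3 sterol genes were higher and 5 lower in Tc9, and without the trend as well 0 were higher and 2 lower. Over all genes, 75 higher and 35 lower became 1236 and 1438 with the block, 760 and 666 with the block and no trend, 13 and 3 as deposited, 48 and 29 with median centring, and 37 and 19 without the trend. The labels do not say what a shared number means. Deviations from the group means correlated across genes with r = 0.729 between arrays of the same number, and with 2 pairs this is a hint from the data only. Leaving out 1 array gave between 120 and 167 genes higher and between 55 and 124 lower, and between 0 and 1 sterol genes lower (Idi1, without Tc9-2). With 1 array of a group left, its spread is assumed to equal that of the other group. The sign turned with 1 array left out for 11 genes, whose log2 changes ran between -0.60 and 0.083 for Msmo1, -0.0039 and 0.17 for Sc5d, -0.047 and 0.28 for Mvk, -0.11 and 0.25 for Mvd, -0.16 and 0.18 for Dhcr7, -0.096 and 0.034 for Srebf2, -0.13 and 0.22 for Insig1, -0.19 and 0.27 for Npc2, -0.55 and 0.013 for Insig2, -0.34 and 0.077 for Fdps, and -0.0055 and 0.21 for Cyp51. No sterol gene had a second probe set to compare. Leaving out 1 array makes the groups unequal in array numbers, so a difference between numbers enters the change. Among the 11 genes, only Dhcr7 and Npc2 differed in sign within numbers 1 and 2. Beyond that, the cause of these shifts was not tested. Signal over background limits Insig2 and Npc1.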

Other observations

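Division genes, which serve as a measure of growth beside sterol synthesis, were mostly at lower values in Tc9 than in Tc1. Of 15 measured proliferation genes, 13 were below 0 on the log2 scale and the median change was -0.35 (-0.35 and -0.34 within numbers 1 and 2). By limma 0 of them passed over all genes, and an unadjusted p under 0.05 was found for 4, all lower in Tc9 (26.7%, beside 2.34% of all genes). With the replicate number as a block 8 were lower (53.3%), beside 7.37% of all genes and 15.9% of genes above the negative-control percentile on all 4 arrays, as 14 of the 15 are. Aurkb, a mitotic kinase, measured 615 and 593 in Tc9 against 941 and 925 in Tc1. Rrm2, a subunit of the enzyme that makes deoxyribonucleotides, measured 1131 and 1138 in Tc9 against 1618 and 1677 in Tc1. In both genes the Tc9 arrays lay below the Tc1 arrays. Aurkb and Rrm2 had the largest changes of the 15 and were named after their values were seen. The brightest members changed less, with log2 changes of -0.052 for Pcna and Mcm2, -0.041 for Mcm5 and -0.12 for Mcm3. Aurka and Ccnb2 were above 0, at 0.10 and 0.059. The part of growth in the values of the sterol genes was not tested.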
